A study of Mus musculus with 11 samples.

Results

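The 10 genes described here are a listed part, not all, of the mouse CDK inhibitors and of the D-type cyclins with their partner kinases. The list holds *Cdkn1a* (p21), *Cdkn1b* (p27) and *Cdkn1c* (p57) of the CIP/KIP family, *Cdkn2a*, *Cdkn2c* (p18) and *Cdkn2d* (p19) of the INK4 family, the cyclins *Ccnd2* and *Ccnd3*, and the kinases *Cdk4* and *Cdk6*. They were taken by symbol from the GENCODE names of GRCm38 and are 10 of the 54418 genes in the count table. RNA was sequenced from whole-thymus cell suspensions of 4 wild-type (wt) mice, 4 *Zmat3-/-* mice and 3 *Puma-/-p21-/-Zmat3-/-* mice (TKO), all young adults of 8 to 12 weeks on a C57BL/6-WEHI background. The mutant alleles were inherited through the germline, so the genes were missing in every cell from conception on and not only in thymocytes. TKO mice came from inter-crossing *Zmat3-/-* mice with *Puma-/-p21-/-* mice and lacked 3 genes together. Both mutant genotypes share the loss of *Zmat3*, so TKO against *Zmat3-/-* is the comparison in which p21 and Puma differ, and the loss of p21 alone was not separated from that of Puma. The question asked of these genes was whether the other inhibitors, the D-type cyclins or their kinases differed where p21 was missing.

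D-type cyclins bind CDK4 and CDK6 and switch on the phosphorylation of the RB family, which releases E2F factors and lets a cell enter S phase. INK4 proteins bind CDK4 and CDK6 themselves and keep the cyclin away, whereas CIP/KIP proteins bind cyclin-CDK complexes and act mainly on those of CDK2. The gene *Cdkn1a* is a classical target of TRP53 and couples DNA damage to arrest. In the thymus, cyclin D3 serves the burst of division that follows the pre-TCR signal, and p27 and p18 restrain the proliferation of thymocytes.

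The primer that the study used for p21 and that matched the annotated *Cdkn1a* transcripts is shown first, to place the genotyping assay in the gene. Which allele it serves, and how much of the gene was removed, cannot be read from it. It lies on the minus strand at chr17:29098547-29098567 (GRCm38), in exon 2 of 3 or, in another annotated transcript, exon 1 of 2. That exon holds 430 of the 477 coding bases (90.1%).

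p21 genotyping primer 2: tgacgaagtcaaagttccacc

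A TRP53-type sequence was looked for in the 300-base windows around the starts of the members (RefSeq, GRCm38.p6), as 2 CATG cores with 6 bases of any kind between them, a form that reads alike on both strands. Of the 12 windows of the members, which covered 8 genes, only the first *Cdkn1a* window held it, at chr17:29090928-29090947 on the plus strand. Its first core started 48 bases before the transcription start of that window. The window of the other *Cdkn1a* start (chr17:29093519-29093818) held none. The form occurred in 234 of all 32851 windows (0.712%). Capitals mark the cores.

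Cdkn1a: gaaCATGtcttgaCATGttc

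The E-box CACGTG was also searched, on both strands, where it reads alike. The *Cdk4* window held 4 of them, the windows of *Cdk6* and *Cdkn2c* held 1 each, and 2349 of all windows (7.15%) held at least 1. The 250 bases before the *Cdk4* start (chr10:127063285-127063534, plus strand) are printed with the E-boxes in capitals, because *Cdk4* was among the members whose levels differed most between wt mice. The E2F forms TTTCGCGC and TTTGGCGC occurred in 267 windows (0.813%) and in no member's, and the forkhead form GTAAACA in 1199 (3.65%), among them 1 *Ccnd3* window. These letters are a description of the windows and not of the binding of any factor.

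Cdk4: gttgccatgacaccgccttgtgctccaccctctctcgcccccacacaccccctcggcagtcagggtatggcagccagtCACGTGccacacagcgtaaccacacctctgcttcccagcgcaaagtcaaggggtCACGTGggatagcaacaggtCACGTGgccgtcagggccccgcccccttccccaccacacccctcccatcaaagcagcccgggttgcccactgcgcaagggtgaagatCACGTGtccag

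Library totals ran from 17669715 to 80207003 estimated counts, so that 3 counts correspond to 0.167 CPM (TMM-scaled reads of each gene relative to the library size) in the smallest library and to 0.0403 CPM in the largest. Thymocyte markers summed to 15624 to 21888 CPM in every library. Myeloid markers summed to 126 to 274 CPM, B cell markers to 50.2 to 109 and stromal markers to 175 to 299. The 1 stromal entry at 0 in every library was a duplicate of the symbol *Ccl21a*, whose other entry read 3.75 to 20.9 CPM. Erythroid markers ranged from 880.1 to 8558 CPM, early double-negative markers from 67.6 to 94.1 and mature single-positive markers from 358 to 456. The wt libraries correlated less with one another (median correlation 0.896 to 0.923) than the *Zmat3-/-* (0.982 to 0.983) and TKO libraries (0.975 to 0.979). Mice fell into those with *Xist* at 505 to 1485 CPM (wt 1 and 2, *Zmat3-/-* 1 and 2, TKO 1) and those at 0.806 to 2.54 CPM (the other 6), while the labels give no sex. Since wt 1 and 2 stood apart from wt 3 and 4 in many genes, the comparisons of the members with wt are also given within the *Xist*-high and the *Xist*-low mice. The p-values measure the spread between these mice, and in bulk RNA fewer cells of a type and less RNA per cell cannot be told apart.

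Both targeted genes besides p21 had reads in every mutant library. The counts are summed over a gene, so where in it these reads fell was not measured here. *Zmat3* read 9.88, 12.2, 26.8 and 26.8 CPM in wt mice, 5.67, 5.34, 6.42 and 6.85 CPM in *Zmat3-/-* mice and 8.05, 7.78 and 8.25 CPM in TKO mice. Every mutant library lay below every wt library. The log2 fold change (log2FC) was −1.64 ± 0.35 (SE; edgeR adjusted p = 0.0786) in *Zmat3-/-* and −1.28 ± 0.39 (adjusted p = 0.371) in TKO mice. DESeq2 (adjusted p = 0.000375), edgeR with all 3 genotypes in 1 fit (0.0288), with the *Xist* level (0.0409) and with 1 surrogate variable (7.42e-07) called *Zmat3* in *Zmat3-/-* mice, and in TKO mice only the last did (0.000741). Within *Xist*-high mice it was −0.99 (adjusted p = 0.000789) in *Zmat3-/-* and −0.43 (0.0807) in TKO mice, and within *Xist*-low mice −2.03 (9.48e-05) and −1.83 (0.00011) by the same edgeR fit. *Bbc3*, which encodes PUMA, read 12.9, 15.2 and 13.1 CPM in TKO mice, 16.8 to 20.1 CPM in wt and 15.3 to 19.8 CPM in *Zmat3-/-* mice, so that the TKO mice lay below all others. Its log2FC by edgeR was −0.38 ± 0.13 (adjusted p = 0.983) in TKO against *Zmat3-/-* and −0.48 ± 0.15 (adjusted p = 0.399) in TKO against wt. Against wt, edgeR with 1 surrogate variable called it (−0.46, adjusted p = 0.0299), as it did 17.9% of all genes. Within *Xist*-high mice, where TKO is 1 mouse, *Bbc3* gave −0.59 against wt. Within *Xist*-low mice it gave −0.40 (edgeR adjusted p = 0.134).

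*Cdkn1a*, at chr17:29090976-29100727 (ENSMUSG00000023067.14), read 8.20, 10.4, 3.53 and 4.15 CPM in wt mice, 8.53, 7.71, 4.77 and 5.15 CPM in *Zmat3-/-* mice and 3.52, 3.39 and 2.49 CPM in TKO mice. All 3 TKO mice were below all 8 others, TKO 1 by a hair below wt 3, and in both other genotypes the *Xist*-high mice were the higher ones. These levels rest on 61 to 418 counts. The TKO counts of 140, 61 and 185 show that the gene was not read as absent, and how they fall over its exons was not measured here. *Cdkn1a* shares 9.78% of its 31-base words with other genes and overlaps *AC167363.2* on the other strand, and the kit did not mark strand.

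The difference of TKO from *Zmat3-/-* was −1.12 ± 0.27 (log2FC ± SE, 95% interval −1.73 to −0.51), a fold of 0.461, with an unadjusted p of 0.00214 and an edgeR adjusted p of 0.384. Against wt it was −1.09 ± 0.43 (interval −2.08 to −0.11), with an edgeR adjusted p of 0.443 and an unadjusted one of 0.0339. *Zmat3-/-* and wt mice differed by 0.0051 ± 0.36 (adjusted p = 0.996), with an interval from −0.83 to 0.84. The call depended on the fit. Against *Zmat3-/-* it was not made by edgeR with the filter on low counts, and it was made by DESeq2 (−1.11, adjusted p = 0.0175) and by edgeR without the filter (−1.11, adjusted p = 0.0164), where 0.307% of all genes were called. Against wt it was made by edgeR with 1 surrogate variable (−0.84, adjusted p = 0.0321). Within *Xist*-high mice, where TKO is 1 mouse, the log2FC was −1.20 against *Zmat3-/-* and −1.37 against wt. Within *Xist*-low mice it was −0.84 (edgeR adjusted p = 0.466) against *Zmat3-/-* and −0.50 (edgeR adjusted p = 0.226) against wt.

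*Cdkn1b*, whose product p27 holds resting thymocytes out of the cycle, read 249, 268, 379 and 379 CPM in wt, 363, 389, 401 and 413 CPM in *Zmat3-/-* and 388, 365 and 421 CPM in TKO mice. The *Xist*-high wt mice were below all other 9 mice, whereas the other wt mice lay within the mutant range. The log2FC of TKO against *Zmat3-/-* was −0.050 ± 0.072 (adjusted p = 0.983), with an interval from −0.21 to 0.11.

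*Cdkn1c*, an imprinted inhibitor of stem and progenitor cells, read 4.62, 4.67, 2.28 and 3.08 CPM in wt, 4.15, 3.81, 4.21 and 4.57 CPM in *Zmat3-/-* and 3.52, 4.39 and 4.39 CPM in TKO mice. The groups overlapped throughout. Its log2FC of TKO against *Zmat3-/-* was −0.083 ± 0.17 (adjusted p = 0.983), and 27.2% of its 31-base words are shared with the antisense gene *Gm44732*, from which reads cannot be told apart.

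Of the INK4 inhibitors, *Cdkn2a* was near the detection limit: 16, 20, 4 and 8 counts in wt, 24, 8, 0 and 5 in *Zmat3-/-* and 7, 3 and 13 in TKO mice. The groups overlapped, and it passed the filter on low counts in no comparison, so no fold is given. Its counts are summed over 2 annotated transcripts, so different products of the gene were not told apart. *Cdkn2c*, which restrains the division of T cells, read 88.0, 70.0, 64.1 and 63.9 CPM in wt, 65.3, 73.8, 58.9 and 49.7 CPM in *Zmat3-/-* and 57.7, 59.1 and 88.5 CPM in TKO mice. TKO 3 was the highest of all, and it also had the highest summed proliferation markers (2889 CPM against 1304 to 2014 in the others), whose part in the value was not tested. *Cdkn2d* read 182, 145, 97.6 and 88.6 CPM in wt, 112, 109, 104 and 105 CPM in *Zmat3-/-* and 98.6, 93.7 and 113 CPM in TKO mice. The *Xist*-high wt mice were above all others and the mutant mice lay between 93.7 and 113 CPM. TKO against *Zmat3-/-* gave log2FC 0.082 ± 0.13 for *Cdkn2c* and −0.13 ± 0.059 for *Cdkn2d*, each with an adjusted p of 0.983 by edgeR.

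The cyclins were *Ccnd2*, at 103, 106, 81.1 and 93.8 CPM in wt, 136, 124, 99.1 and 108 CPM in *Zmat3-/-* and 97.1, 140.1 and 121 CPM in TKO mice, and *Ccnd3*, the cyclin of the pre-TCR stage. The *Ccnd2* groups overlapped, and wt 3 and 4 were the lowest mice. *Ccnd3* read 1622, 1173, 757 and 747 CPM in wt, 816, 893, 724 and 719 CPM in *Zmat3-/-* and 783, 704 and 1069 CPM in TKO mice. Again the *Xist*-high wt mice were the highest, and the others overlapped across genotypes. TKO against *Zmat3-/-* gave −0.017 ± 0.15 (interval −0.34 to 0.31, adjusted p = 0.998) for *Ccnd2* and 0.050 ± 0.11 (−0.20 to 0.30, adjusted p = 0.983) for *Ccnd3*.

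The kinase *Cdk4* read 302, 226, 127 and 122 CPM in wt, 157, 153, 143 and 131 CPM in *Zmat3-/-* and 139.9, 132 and 164 CPM in TKO mice. Its relative *Cdk6*, which the same cyclins activate, read 58.7, 66.6, 158 and 157 CPM in wt, 122, 138, 130.1 and 119 CPM in *Zmat3-/-* and 115, 126 and 165 CPM in TKO mice. *Xist*-high wt mice were the highest for *Cdk4* and the lowest for *Cdk6*, and the mutant genotypes overlapped each other. TKO against *Zmat3-/-* gave −0.058 ± 0.073 (interval −0.22 to 0.10) for *Cdk4* and 0.030 ± 0.083 (−0.16 to 0.22) for *Cdk6*, with adjusted p of 0.983 and 0.985 by edgeR.

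**Figure D1:**
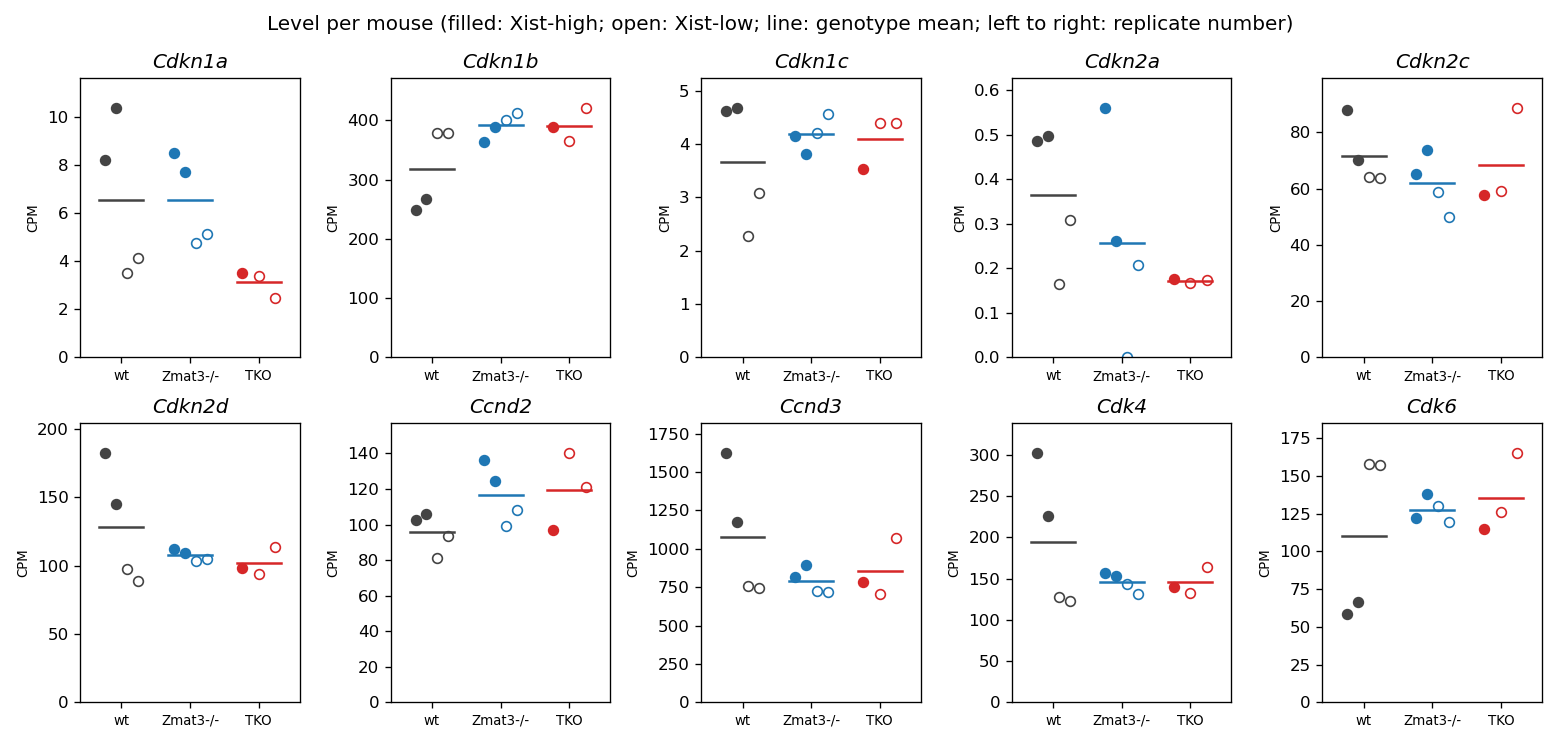
CPM of each member (one panel a gene) in each of the 11 mice, grouped by genotype, with *Xist*-high and *Xist*-low mice marked apart. *Cdkn1a* lies at 2.49 to 3.52 CPM in the 3 TKO mice, under the 3.53 CPM of the lowest other mouse, while the *Xist*-high wt mice stand away from the rest in *Cdk4* and *Cdk6*.

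Across all members, 9 of the 10 passed the filter on low counts in each comparison. With edgeR, 0 of the 9 had an adjusted p under 0.05 in *Zmat3-/-* against wt, where 103 of 13488 genes were called (0.764%), in TKO against wt (39 of 13260, 0.294%) and in TKO against *Zmat3-/-* (29 of 13124, 0.221%). At an unadjusted p under 0.05 the counts were 0, 1 and 1 of 9, beside 16.1%, 10.3% and 4.5% of all genes, and the 1 was *Cdkn1a*. DESeq2 called 0, 0 and 1 members, beside 8.04%, 2.87% and 0.556% of all genes. With 1 surrogate variable edgeR called 5, 1 and 0 members, beside 37.8%, 17.9% and 0.267% of all genes: *Cdkn1b* (log2FC 0.27), *Ccnd2* (0.32) and *Cdk6* (0.24) rose and *Ccnd3* (−0.29) and *Cdk4* (−0.20) fell in *Zmat3-/-* against wt, and *Cdkn1a* fell in TKO against wt. The ranges of the genotypes did not overlap for 0, 1 and 1 of the members (11.1% for each 1), again *Cdkn1a*, beside 14.1%, 12.1% and 4.92% of all genes. The median log2FC of the 9 was 0.0051, −0.12 and −0.050, beside −0.026, −0.037 and −0.0083 over all genes tested, with 5, 4 and 3 of the 9 above 0.

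For the question of compensation, the 8 tested members other than *Cdkn1a* lay between −0.13 and 0.082 in log2FC of TKO against *Zmat3-/-*, with adjusted p from 0.983 to 0.998. Their 95% intervals together spanned −0.47 to 0.38. Within the sets of mice divided by *Xist* the largest of these differences were wider and turned sign. *Ccnd2* gave −0.42 within *Xist*-high mice, where TKO is 1 mouse, and 0.28 (edgeR adjusted p = 0.638) within *Xist*-low mice. *Cdkn2c* gave −0.26 and 0.37 (edgeR adjusted p = 0.567) in the same order. Against wt, where the spread was wider, TKO mice gave −0.46 to 0.28 (adjusted p 0.599 to 0.883) and intervals spanning −1.20 to 1.14, and *Zmat3-/-* mice −0.44 to 0.30 (adjusted p 0.314 to 0.776). The 2 comparisons with wt share the wt mice. *Ccnd1*, the cyclin that the list leaves out, read 5.73 to 12.3 CPM in wt mice, 8.09 to 16.0 CPM in *Zmat3-/-* and 10.2 to 14.4 CPM in TKO mice. Its log2FC was −0.046 ± 0.25 (adjusted p = 0.994) in TKO against *Zmat3-/-*, 0.65 ± 0.30 (adjusted p = 0.500) in TKO against wt and 0.68 ± 0.29 (adjusted p = 0.295, or 0.0207 with 1 surrogate variable) in *Zmat3-/-* against wt.

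**Figure D2:**
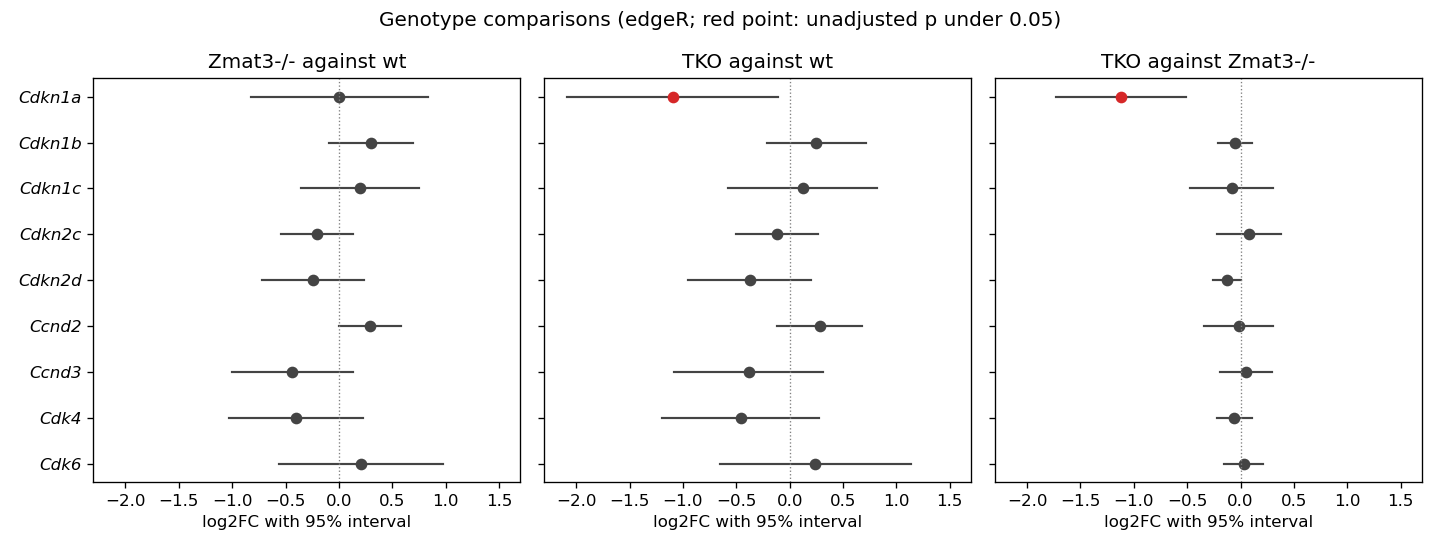
Log2FC with 95% intervals of the 9 tested members in the 3 comparisons, from edgeR. In TKO against *Zmat3-/-* the 8 members other than *Cdkn1a* lie between −0.13 and 0.082, and *Cdkn1a* at −1.12.

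The split among the wt mice is a description, since the mice were divided after wt 1 and 2 were seen to stand apart from wt 3 and 4. In wt, 7 of the 9 members (77.8%) were past the threshold between *Xist*-high and *Xist*-low mice, beside 58.9% of all 13522 genes fitted. *Cdk6* was lower by 1.36 on the log2 scale (log2FC −1.36) and *Cdkn1b* by 0.59 (log2FC −0.59) in the *Xist*-high wt mice. *Cdkn1a* (1.24), *Cdk4* (1.05), *Ccnd3* (0.86), *Cdkn2d* (0.78) and *Cdkn1c* (0.76) were higher there, whereas *Cdkn2c* (0.27) and *Ccnd2* (0.22) did not pass. The same contrast called 0 genes in *Zmat3-/-* mice by edgeR, where 876 genes had an unadjusted p under 0.05, and 0 in TKO mice, where 822 did.

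Transcript length went with that split. Over 13507 genes (genes do not count as independent replicates), the Spearman correlation of the *Xist*-high minus *Xist*-low difference with the length of the longest transcript was −0.52 in wt, −0.16 in *Zmat3-/-* and −0.21 in TKO mice. Among the members, *Cdk6*, the longest at 11525 bases, was lower in *Xist*-high wt mice, and *Cdk4* (2053 bases) and *Cdkn2d* (1423 bases) were higher. The order of length was not followed throughout, since *Ccnd2*, the next longest at 6330 bases, gave 0.22 and *Ccnd3* (3858 bases) was higher by 0.86, whereas *Cdkn1b* (4552 bases) was lower. Whether length or *Xist* status had a part in the members' values was not tested.

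**Figure D3:**
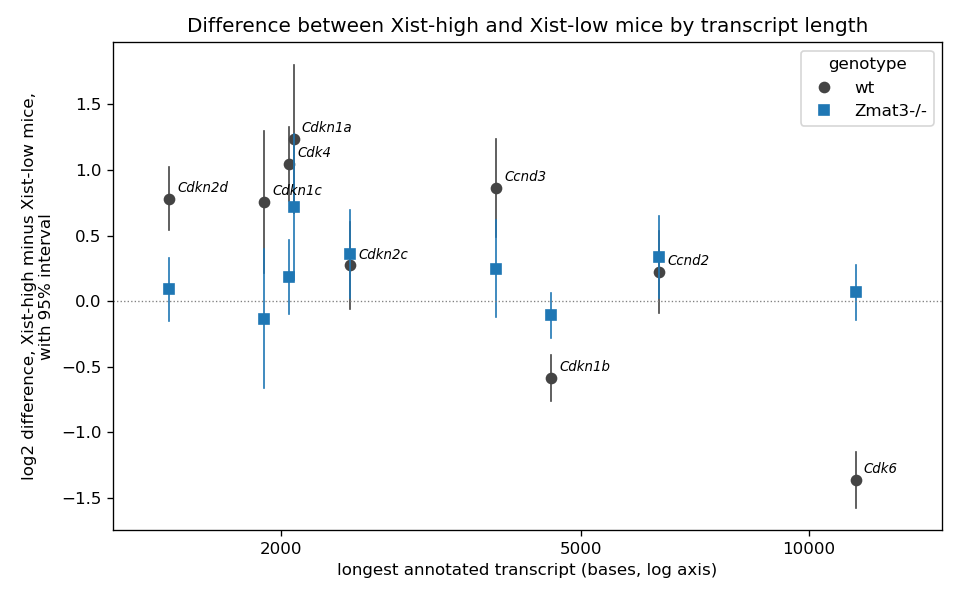
Log2 difference between *Xist*-high and *Xist*-low mice (vertical) against the longest transcript in bases (horizontal, log axis) for the 9 tested members, in wt and in *Zmat3-/-* mice. In wt the longest, *Cdk6* at 11525 bases, lies lowest at −1.36, and the *Zmat3-/-* points lie nearer to 0 for all members but *Cdkn2c* and *Ccnd2*. Lines are 95% intervals.

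The comparisons with wt within the 2 sets of mice carry that split of the wt mice and are given as within-set values. Within *Xist*-high mice *Zmat3-/-* against wt called 5 of 9 members (55.6%, beside 46.3% of all genes): *Cdk6* rose by 1.07 and *Cdkn1b* by 0.56, and *Cdk4*, *Ccnd3* and *Cdkn2d* fell by 0.76, 0.70 and 0.55 on the log2 scale. Within *Xist*-low mice only *Cdk6* was called, at −0.36 (adjusted p = 0.0493), beside 6.91% of all genes. For TKO against wt 6 of 9 (66.7%) were called within *Xist*-high mice, beside 40.2%, and within *Xist*-low mice only *Ccnd2*, at 0.50 (adjusted p = 0.0446), beside 13.2%. TKO against *Zmat3-/-* called 0 members by edgeR in either set, beside 0.141% and 0.207% of all genes, with 2 members at an unadjusted p under 0.05 within each set, beside 3.17% and 8.21% of all genes. The TKO *Xist*-high set is 1 mouse, which was assumed to vary like the others.

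**Figure D4:**
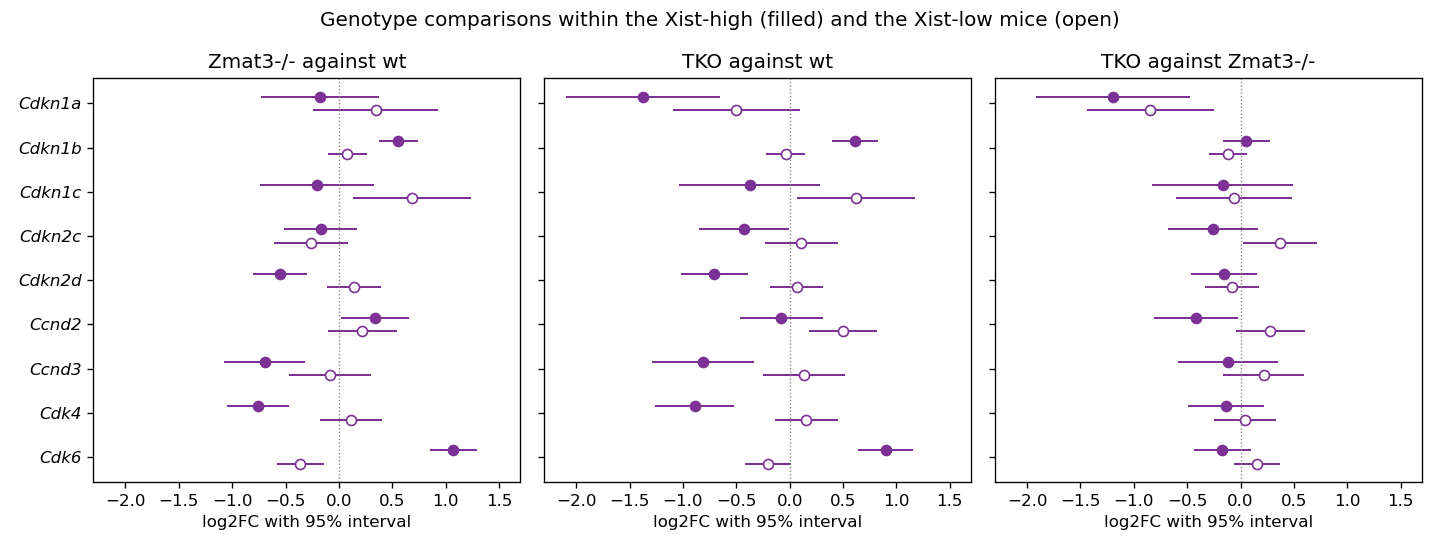
Log2FC of the 9 tested members in each comparison, within *Xist*-high mice and within *Xist*-low mice, with 95% intervals. In the comparisons with wt the 2 sets lie apart for *Cdk6*, at 1.07 and −0.36 in *Zmat3-/-* mice.

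Per kb of annotated exon, the wt order of the mean levels was *Ccnd3* (122 CPM per kb), *Cdkn2d* (81.6), *Cdkn1b* (70.0), *Cdk4* (59.8), *Cdkn2c* (26.6), *Ccnd2* (10.2), *Cdk6* (7.87), *Cdkn1a* (1.85), *Cdkn1c* (1.80) and *Cdkn2a* (0.311). Neighbours whose wt ranges overlapped were *Ccnd3* and *Cdkn2d*, *Cdkn2d* and *Cdkn1b*, *Cdkn1b* and *Cdk4*, *Ccnd2* and *Cdk6*, and *Cdkn1a* and *Cdkn1c*. In *Zmat3-/-* and TKO mice *Cdkn1b* stood second, at 86.1 and 86.0 CPM per kb, above *Cdkn2d* at 68.2 and 64.8, and *Cdkn1c* stood above *Cdkn1a*, at 2.05 against 1.84 in *Zmat3-/-* mice, where their ranges overlapped, and at 2.01 against 0.882 in TKO mice, where they did not. The order depends on the length used. Per kb of the longest transcript the wt order began with *Ccnd3* (278 CPM per kb), *Cdk4* (94.7), *Cdkn2d* (90.2) and *Cdkn1b* (70.0), *Cdkn1a* stood at 3.16, and in *Zmat3-/-* mice *Cdkn1a* (3.14) stood above *Cdkn1c* (2.20). 

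**Figure D5:**
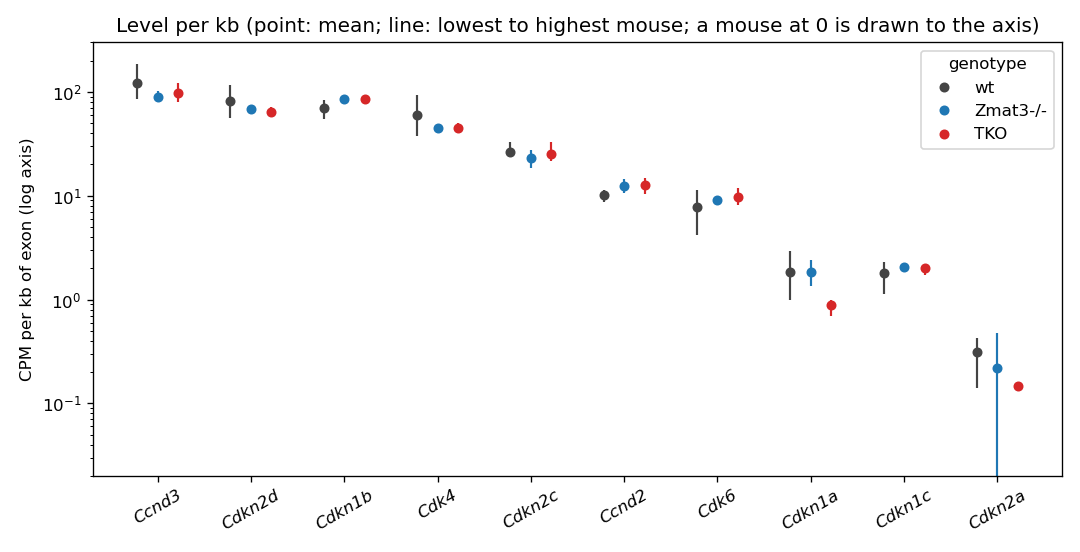
CPM per kb of annotated exon for the 10 members by genotype (log axis); a point is the mean and a line runs from the lowest to the highest mouse. *Ccnd3* is highest in each genotype, and *Cdkn2a* lowest, with a *Zmat3-/-* mouse at 0 drawn to the axis.

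Around the members, 77 of 78 genes in 5 lists of the cell cycle machinery were tested (the cyclin-CDK engine, pocket proteins and E2F, S phase genes that E2F drives, proliferation markers, and regulators of the inhibitors and cyclins). By edgeR 0 of them were called in any comparison, with 10 (13%), 6 (7.79%) and 2 (2.6%) at an unadjusted p under 0.05, in the order used above, shares below the 16.1%, 10.3% and 4.5% of all genes. List medians in TKO against *Zmat3-/-* were −0.069 for the cyclin-CDK engine, 0.029 for pocket proteins and E2F, −0.038 for S phase genes, −0.062 for proliferation markers and 0.022 for regulators. *Foxo3*, a forkhead factor that drives *Cdkn1b*, had the lowest p in both comparisons with wt, at 0.35 ± 0.091 (log2FC, adjusted p = 0.122) in *Zmat3-/-* and 0.46 ± 0.13 (adjusted p = 0.336) in TKO mice. *Foxo1*, of the same family, gave 0.32 ± 0.093 (adjusted p = 0.152) and 0.37 ± 0.11 (adjusted p = 0.362). *Lin37*, of the DREAM complex that silences cell cycle genes, gave −0.66 ± 0.21 in *Zmat3-/-* (adjusted p = 0.174), and *Cul1*, a ubiquitin ligase scaffold, 0.42 ± 0.16 in TKO against wt (adjusted p = 0.433). In TKO against *Zmat3-/-* *Mnat1* (−0.23 ± 0.084) and *Lin52* (−0.17 ± 0.10) were among the genes of lowest p, each with an adjusted p of 0.983. Of 9 immediate-early genes, 3 (*Dusp1*, *Fosb* and *Nr4a1*) rose in both comparisons with wt, beside 0.764% and 0.294% of all genes called, and *Egr1* of the same list gave −0.34 (edgeR adjusted p = 0.149) and −0.32 (adjusted p = 0.435). The list medians were 2.28 and 2.22, and the list summed to 251 to 586 CPM in wt and 1139 to 1486 CPM in the mutant mice. Mitochondrial genes took 4.25 to 6.31% of the counts in wt libraries, 6.54 to 14.6% in those of *Zmat3-/-* mice and 8.44, 9.29 and 3.86% in those of TKO mice. The part of that list and of that share in the members' values was not tested.

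The genes whose log2 CPM followed each member most closely over the 11 mice are a description, since the mice share genotype and the wt split. *Cdkn1a* went with *Clec12a* (r = 0.923), *H19* (0.918) and *Gpr160* (0.888), at 0.869, 0.859 and 0.823 without wt 1 and 2. *Cdkn2c* went with *Asf1b* (0.981), *Kifc1* (0.964) and *Cdca8* (0.962), and *Ccnd2* with *Polr3g* (0.934), *Nod1* (0.894) and *Sh3bp4* (0.889). *Cdkn1b* went with *Plcxd2* (0.991), *Ice1* (0.990) and *Klhl11* (0.989), *Cdkn1c* with *Gm49384* (0.955), *Slc25a13* (0.935) and *Mbd2* (0.933), and *Cdkn2d* with *Mrpl43* (0.991) and *Gtf2f1* (0.990). *Ccnd3* went with *Ebp* (0.991), *Anp32b* (0.989) and *Mfsd10* (0.988), *Cdk4* with *Snrnp40* (0.997), *Dapk3* (0.993) and *Mrpl43* (0.993), and *Cdk6* with *Sik2* (0.988), *Cep192* (0.988) and *Med14* (0.987). Among the members themselves *Cdkn2d* and *Cdk4* gave 0.987 (0.891 without wt 1 and 2) and *Cdkn2c* and *Ccnd3* 0.825 (0.905), while *Cdkn1b* with *Cdk6* (0.919, then 0.191) and *Cdk4* with *Cdk6* (−0.871, then −0.0090) rested on those 2 mice.

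Of 234 tested genes that start within 1 Mb of a member, edgeR called 2 (0.855%) in *Zmat3-/-* against wt, near the share of all genes (0.764%). They were *Gm26885* near *Cdkn1a* (log2FC 2.50 ± 0.28, adjusted p = 0.00979) and *Mterf1a* near *Cdk6* (−0.94 ± 0.14, adjusted p = 0.0293). Near *Cdkn1a* 0 of 31 tested genes were called in either TKO comparison.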

How the data were processed

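Reads were sequenced from thymocytes of 4 wt, 4 *Zmat3-/-* and 3 TKO mice. The kit did not mark strand. The authors ran the nf-core/rnaseq pipeline with Salmon on GRCm38.p6 and deposited estimated counts per gene, whole numbers with no normalization, 1 column a mouse. Of 54418 genes, 54166 were matched to GENCODE M21 names and positions. Grouping followed the labels.

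Each pair of genotypes was fitted in edgeR 4.0.16 under R 4.3.3 with TMM, the quasi-likelihood F-test, two-sided, and Benjamini-Hochberg adjustment over all genes tested. Genes needed 20 counts, scaled to the smallest library of the pair, in at least the number of mice of the smaller genotype. *Xist*, Y-linked, rRNA and immunoglobulin pseudogenes were left out of the tests. Intervals are 95% t intervals. CPM used TMM factors over all 11 mice. Levels per kb used the union of annotated exons. Alternatives were DESeq2 1.42.0, surrogate variables (sva 3.50.0) and those of the closing section. The fits within *Xist*-high (over 100 CPM) and *Xist*-low mice came from 1 edgeR fit over 11 mice and were added after the data were seen. The edgeR fits were also run on simulated counts with the same spread for every gene and no split among the wt mice. That run does not cover DESeq2, surrogate variables or such a split.

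The members and the gene lists were chosen with earlier results of these data known. Named besides the members are *Zmat3*, *Bbc3*, *Ccnd1*, the listed genes of lowest p where fewer than 3 were called, and the 3 genes most alike each member, of which some items are not reported here. *Dusp1*, *Fosb*, *Nr4a1*, *Egr1* and the called neighbours were named after their values were seen. The study used DESeq2 with sex and surrogate variables, and the labels give no sex. Count floors cover counting error only.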

Additional observations from a re-analysis of the deposited data

Results flagged for a closer look

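For some members the difference from wt passed the threshold for an interaction with the *Xist* level, in the edgeR fit over all 11 mice, adjusted over 13522 genes. The mice were divided after wt 1 and 2 were seen to stand apart, and the difference within wt is a part of each value, so these values restate that split and are no independent test of it. For *Zmat3-/-* against wt, the log2FC in *Xist*-high mice minus that in *Xist*-low mice was 1.43 for *Cdk6* (adjusted p = 0.000401), 0.48 for *Cdkn1b* (0.00827), −0.87 for *Cdk4* (0.0054) and −0.69 for *Cdkn2d* (0.00719). For TKO against wt it was 1.11 for *Cdk6* (adjusted p = 0.0011), 0.65 for *Cdkn1b* (0.00384), −1.05 for *Cdk4* (0.00443), −0.77 for *Cdkn2d* (0.008) and −0.95 for *Ccnd3* (0.0207). These comparisons share the wt mice. Of all genes, 5147 (38.1%) and 5038 (37.3%) were called by the same term. For TKO against *Zmat3-/-* edgeR called 0 genes, with 923 at an unadjusted p under 0.05. The term rests on 2 *Xist*-high wt mice and 1 *Xist*-high TKO mouse, and what set these mice apart was not tested.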

How the results depend on the processing

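Counts of called genes are given for *Zmat3-/-* against wt, TKO against wt and TKO against *Zmat3-/-*, in that order unless named (103, 39 and 29, and 43, 32 and 16 also over 1.5 in absolute log2FC). DESeq2 called 1085, 381 and 73, with 123 and 103 over 1.5 against wt, and 1 member (*Cdkn1a*) in TKO against *Zmat3-/-*. With 1 surrogate variable 5103 and 2378 were called against wt, with 215 and 176 over 1.5, and 5 and 1 members (in TKO mice *Cdkn1a*). Without a filter the counts were 55, 61 and 90, with 51 over 1.5 in TKO against wt and 45 against *Zmat3-/-*, where 1 member (*Cdkn1a*) was called. All 3 genotypes in 1 fit gave 240, 216 and 16, with 73 and 68 over 1.5 against wt. The *Xist* level as covariate gave 202 in *Zmat3-/-* against wt. Within *Xist*-high mice the counts were 6262, 5440 and 19, with 525 and 653 over 1.5 and 5 and 6 members against wt, *Cdkn1a* among the 6. Within *Xist*-low mice they were 935 and 1786 against wt, with 190 and 235 over 1.5 and 1 member each. Calls split into 54 higher and 49 lower genes in *Zmat3-/-* against wt, into 517 and 568 with DESeq2, 98 and 142 with all genotypes in 1 fit, 36 and 19 without a filter, 2959 and 2144 with 1 surrogate variable, 12 and 0 with the replicate block and 28 and 5 without wt 4. In TKO against wt they split into 33 and 6, and into 167 and 214, 100 and 116, 47 and 14, 1434 and 944 and, with the block, 14 and 2. The cause of these moves was not tested.

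Deviations from the genotype means in same-numbered mice correlated at 0.339, 0.127, 0.257 and 0.301 for *Zmat3-/-* and wt. They gave 0.0734, 0.302 and 0.405 for TKO and wt, and 0.195, 0.0102 and 0.174 for TKO and *Zmat3-/-*. Mice of unlike number were not compared. With the replicate block 12 genes were called in *Zmat3-/-* against wt and 16 in TKO against wt, with 8 and 16 over 1.5, and 0 members. In wt and *Zmat3-/-* mice the numbers 1 and 2 are the *Xist*-high mice, so number and *Xist* level cannot be told apart there.

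Signs turned as follows in log2FC. For TKO against *Zmat3-/-*, the surrogate variable gave *Ccnd1* 0.13, *Ccnd2* 0.059, *Ccnd3* −0.0037 and *Cdk6* −0.012, the *Xist* covariate *Ccnd1* 0.060 and *Ccnd2* 0.0025, and the replicate block *Cdk6* −0.0030 and *Cdkn2c* −0.013. For *Cdkn1a* in *Zmat3-/-* against wt, all genotypes in 1 fit gave −0.0018 and no filter −0.0085. Within *Xist*-high mice, TKO against *Zmat3-/-* gave *Ccnd3* −0.12, *Cdk6* −0.17, *Cdkn1b* 0.055 and *Cdkn2c* −0.26, TKO against wt *Ccnd2* −0.081 and *Cdkn1c* −0.37, and *Zmat3-/-* against wt *Cdkn1a* −0.18 and *Cdkn1c* −0.21. Within *Xist*-low mice, TKO against *Zmat3-/-* gave *Ccnd1* 0.23, *Ccnd2* 0.28 and *Cdk4* 0.045, TKO against wt *Ccnd3* 0.13, *Cdk4* 0.16, *Cdk6* −0.21, *Cdkn1b* −0.037, *Cdkn2c* 0.11 and *Cdkn2d* 0.063, and *Zmat3-/-* against wt *Bbc3* 0.032, *Cdk4* 0.11, *Cdk6* −0.36 and *Cdkn2d* 0.14.

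Leaving out 1 mouse at a time gave 17 to 105, 16 to 42 and 20 to 34 calls, 12 to 47, 15 to 35 and 14 to 18 over 1.5, and 0 members. TKO against *Zmat3-/-* then ran from −0.20 to 0.16 for *Ccnd1*, −0.19 to 0.090 for *Ccnd2*, −0.050 to 0.14 for *Ccnd3*, −0.045 to 0.11 for *Cdk6* and −0.052 to 0.17 for *Cdkn2c*. *Zmat3-/-* against wt ran from −0.0052 (without wt 1) to 0.44 for *Cdk6* and −0.20 to 0.30 for *Cdkn1a*, and TKO against wt from −0.047 (without wt 3) to 0.25 for *Cdkn1c*. *Cdkn1a* in TKO against *Zmat3-/-* kept its direction, at −1.26 to −0.89 with adjusted p from 0.417 to 0.983.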
